A study of Mus musculus with 10 samples.

Results

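The cytosolic ribosomal protein genes were read in eosinophils sorted from the lungs of P2ry14-null and wild-type mice. They were taken by symbol: Rps or Rpl followed by a number and any letters, plus Rplp0, Rplp1, Rplp2 and Rpsa, without the Rps6k kinases and the pseudogene symbols ending in -ps. This gave 89 of the 35725 gene rows, 35 with a small-subunit name and 54 with a large-subunit name. Of these, 88 passed the low-count filter. The exception was Rpl10l, a testis-expressed retrogene of Rpl10, which had 1 read in a single WT library. In addition to 77 genes of the standard ribosome, the 88 include 7 tested paralogs (Rpl3l, Rpl7l1, Rpl22l1, Rpl36al, Rpl39l, Rps27l and Rps4l), 3 retrogene-type rows (Rpl32l, Rpl37rt and Rps27rt) and Rps19bp1, whose product binds Rps19 and is not a ribosomal protein.

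There were 5 libraries from mice of the P2ry14-null strain and 5 from wild-type C57BL/6J mice (WT). P2ry14 encodes a purinergic receptor, coupled to G proteins, that senses extracellular UDP-glucose. All 10 libraries came from male mice in a model of asthma. The mice had been sensitised 2 times through the airway with 50 µg ovalbumin (OVA) and 20 µg of an Aspergillus oryzae protease, were exposed 7 days later to a 1% OVA aerosol, and gave their eosinophils 16 h after that challenge. No unchallenged mice were analysed here. The labels do not say how the null allele was made, and they leave unsaid whether every library is a different mouse. The p-values therefore reflect the spread among these 10 samples, part of which could be technical.

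Each library held between 67.2 and 185 M reads assigned to genes (M, 1e+06), with P2ry14-null 1 the shallowest and WT 3 the deepest. P2ry14 itself averaged 23.2 ± 1.02 counts per 1e+06 reads (CPM) in P2ry14-null libraries and 211 ± 16.0 CPM in WT libraries (SD, n = 5 each), a log2 fold change of -3.19 ± 0.06 (SE) with an adjusted p of 3.74e-12 (edgeR quasi-likelihood test). The 14 eosinophil genes checked, among them Siglecf, Ccr3 and Prg2, were all detected, and their summed level ran from 15889 to 16693 CPM in P2ry14-null libraries and from 15834 to 17070 CPM in WT libraries. The largest parts of that sum were Alox15 (5049 CPM in P2ry14-null libraries, 5013 CPM in WT libraries) and Itgam (3806 CPM in P2ry14-null libraries, 3944 CPM in WT libraries). The libraries were sorted bulk samples, in which fewer cells of a type and less RNA per cell cannot be told apart.

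A ribosome joins a small subunit, which decodes the mRNA, to a large subunit, which makes the peptide bond, and each ribosomal protein enters a ribosome in about a single copy, apart from the stalk proteins Rplp1 and Rplp2. Most mRNAs of ribosomal proteins and of many translation factors begin with a C followed by a run of pyrimidines, the terminal oligopyrimidine (TOP) motif, through which mTORC1 and the protein Larp1 govern their translation and storage. Mature granulocytes are non-dividing cells that have completed most of their granule protein synthesis before they leave the bone marrow.

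The TOP motif lies at the transcription start, so start-site sequences are shown for 4 members with differences beyond the median (Rplp2, Rps10, Rps18 and Rpl35a), for Rps6, which lies in the mTORC1 pathway, and for Rps27l, Rpl7l1 and Rps19bp1, whose differences were near 0, from 10 bases before to 20 bases from the annotated start. They were read from RefSeq on GRCm38.p6, and capitals mark the longest run of at least 7 pyrimidines that begins with C in the 30 bases. Where a gene had several annotated starts, a start holding such a run was preferred. The presence of the run in a window was thus partly set by that choice.
Rplp2: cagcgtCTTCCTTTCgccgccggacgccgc
Rps10: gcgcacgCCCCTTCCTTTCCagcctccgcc
Rps18: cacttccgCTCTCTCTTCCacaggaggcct
Rps6: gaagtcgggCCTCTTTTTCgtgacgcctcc
Rpl35a: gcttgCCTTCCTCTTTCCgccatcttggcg
Rps27l: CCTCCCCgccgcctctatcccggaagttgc
Rpl7l1: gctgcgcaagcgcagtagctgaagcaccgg
Rps19bp1: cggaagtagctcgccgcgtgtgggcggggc
The windows lie at chr7:141447641-141447670 (plus strand) for Rplp2, chr17:27635225-27635254 (minus) for Rps10, chr17:33955646-33955675 (minus) for Rps18, chr4:86857348-86857377 (minus) for Rps6 and chr16:33056472-33056501 (plus) for Rpl35a. Those of the paralogs are chr9:66946076-66946105 (plus) for Rps27l and chr17:46782637-46782666 (minus) for Rpl7l1, and that of Rps19bp1 is chr15:80264287-80264316 (minus). The run spans the start shown in Rplp2, Rps10, Rps18, Rps6 and Rpl35a, whereas in Rps27l it ends before the start and in Rpl7l1 and Rps19bp1 the window holds none.

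In all, 68 of the 89 members had a start in the RefSeq promoter table. A run of at least 7 pyrimidines beginning with C, read on the transcribed strand, was present within the 30 bases around a start in 31 of the 68 (45.6%), against 15.6% of the 27025 genes in the table. Between genotypes, the median log2 fold change was -0.17 over the 31 with it and -0.16 over the 36 tested members without it. Rpl10 and Rpl23, both among the members with the smallest p, lack it within the 30 bases. Within 100 bases it was present in 57 of 68 (83.8%), against 44.5% of all genes. The letters CCGGAAG, a core recognised by ETS-family factors, were sought on either strand of 300 bases that lie mostly upstream of a start. They were found in 26 of 68 members (38.2%) and 9.9% of all genes. GCCATNTT, the YY1-type element, was found on either strand in 13 of 68 (19.1%) and 7.0% of all genes. These are matches of letters and not tests of factor binding.

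Levels were high and uneven for proteins used in about equal number. Per kilobase of exon in the shortest principal coding transcript, the median of the 77 standard genes was 187 CPM per kilobase (kb) in P2ry14-null libraries and 210 CPM per kb in WT libraries. Rps27, a zinc-finger protein of the small subunit, was highest, with 970 ± 125 CPM per kb in P2ry14-null libraries and 1109 ± 157 CPM per kb in WT libraries. Rps29, another small zinc-binding protein of the same subunit, had 642 ± 35.4 CPM per kb in P2ry14-null libraries and 725 ± 82.8 CPM per kb in WT libraries. Rplp2 had 592 ± 25.5 CPM per kb in P2ry14-null libraries and 691 ± 63.2 CPM per kb in WT libraries. The ranges of mean ± SD of Rps27 and Rps29 do not overlap within either genotype, while those of Rps29 and Rplp2 overlap within each. The lowest of the 77 was Rps20 (21.8 CPM per kb in P2ry14-null libraries and 24.4 CPM per kb in WT libraries), for which the only usable transcript was 3706 bases long, so its level per kb depends on that length.

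**Figure D1:**
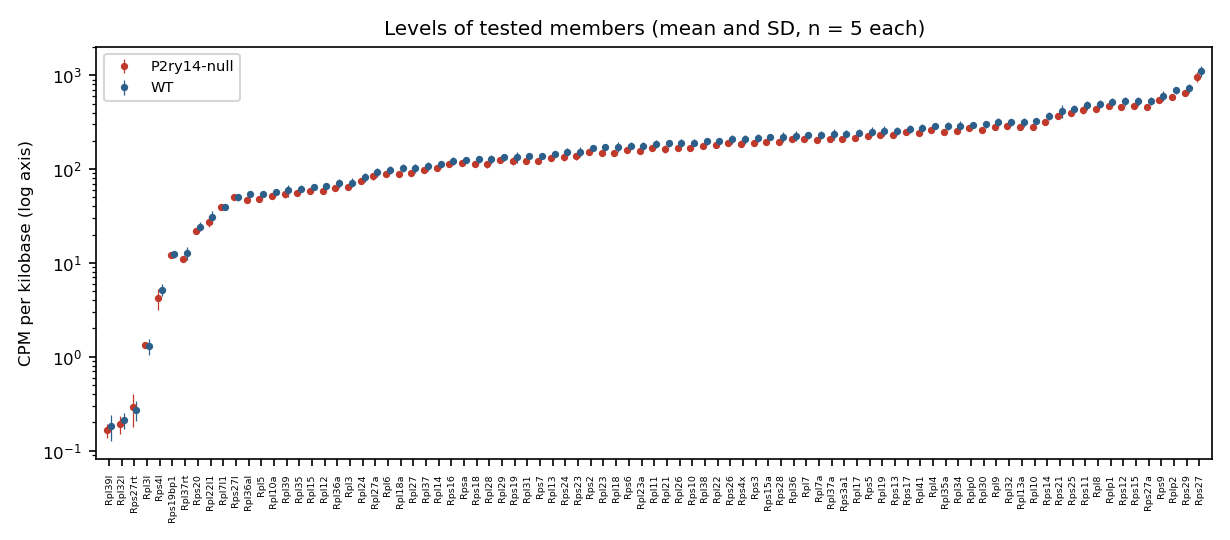
Mean level of each tested gene shown, in CPM per kilobase of exon (log axis), with SD bars, in P2ry14-null (red) and WT (blue) libraries, 5 each. Paralogs, retrogene rows and Rps19bp1 fill most of the left end below the standard genes, and Rps27 stands at the right end with 970 CPM per kb in P2ry14-null libraries and 1109 in WT libraries.

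At the low end, Rpl39l, Rpl32l and Rps27rt had 6 to 25 reads per library, at or below 0.288 CPM per kb in either genotype. Each has a near-identical parent gene at a far higher level. How reads that match several places were counted is not given, so the values of these rows are uncertain. The same holds to a lesser degree for every member, since most ribosomal protein genes have processed pseudogenes. The 13 rows with -ps symbols summed to 3.52 ± 0.262 CPM in P2ry14-null libraries and 3.50 ± 0.257 CPM in WT libraries (SD, n = 5 each).

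The genotype comparison asked whether loss of P2ry14 went with a difference in ribosomal protein mRNA. None of the 88 tested members passed the threshold (adjusted p = 0.999 for every member, edgeR quasi-likelihood test with Benjamini-Hochberg adjustment over 15586 genes), where 0.0385% of all genes tested did. DESeq2, which called 18 genes (0.115% of those tested), and limma-voom, which called 6 (0.0385%), also called 0 members. Yet nearly all members lay on one side: 84 of 88 (95.5%) had a log2 fold change below 0, against 48.8% of all genes tested, and the median was -0.17, against 0.0025 over all genes tested. At an unadjusted p under 0.05, 58 members were lower and 0 higher, where the lower side held 2.67% of all genes tested. By DESeq2 59 members were lower at that threshold, against 2.64% of all genes tested. The edgeR count depended on single libraries and on scaling. It was 30 without P2ry14-null 3, 26 without P2ry14-null 5, 31 without WT 1, 34 without WT 2 and 27 with total counts alone. In that order, the lower side then held 2.57%, 1.81%, 2.29%, 2.41% and 1.82% of all genes tested. Each of the 77 standard genes had a value below 0, within -0.22 to -0.10. Members share libraries and vary together, so these counts describe the list and are not independent repeats of the result.

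**Figure D2:**
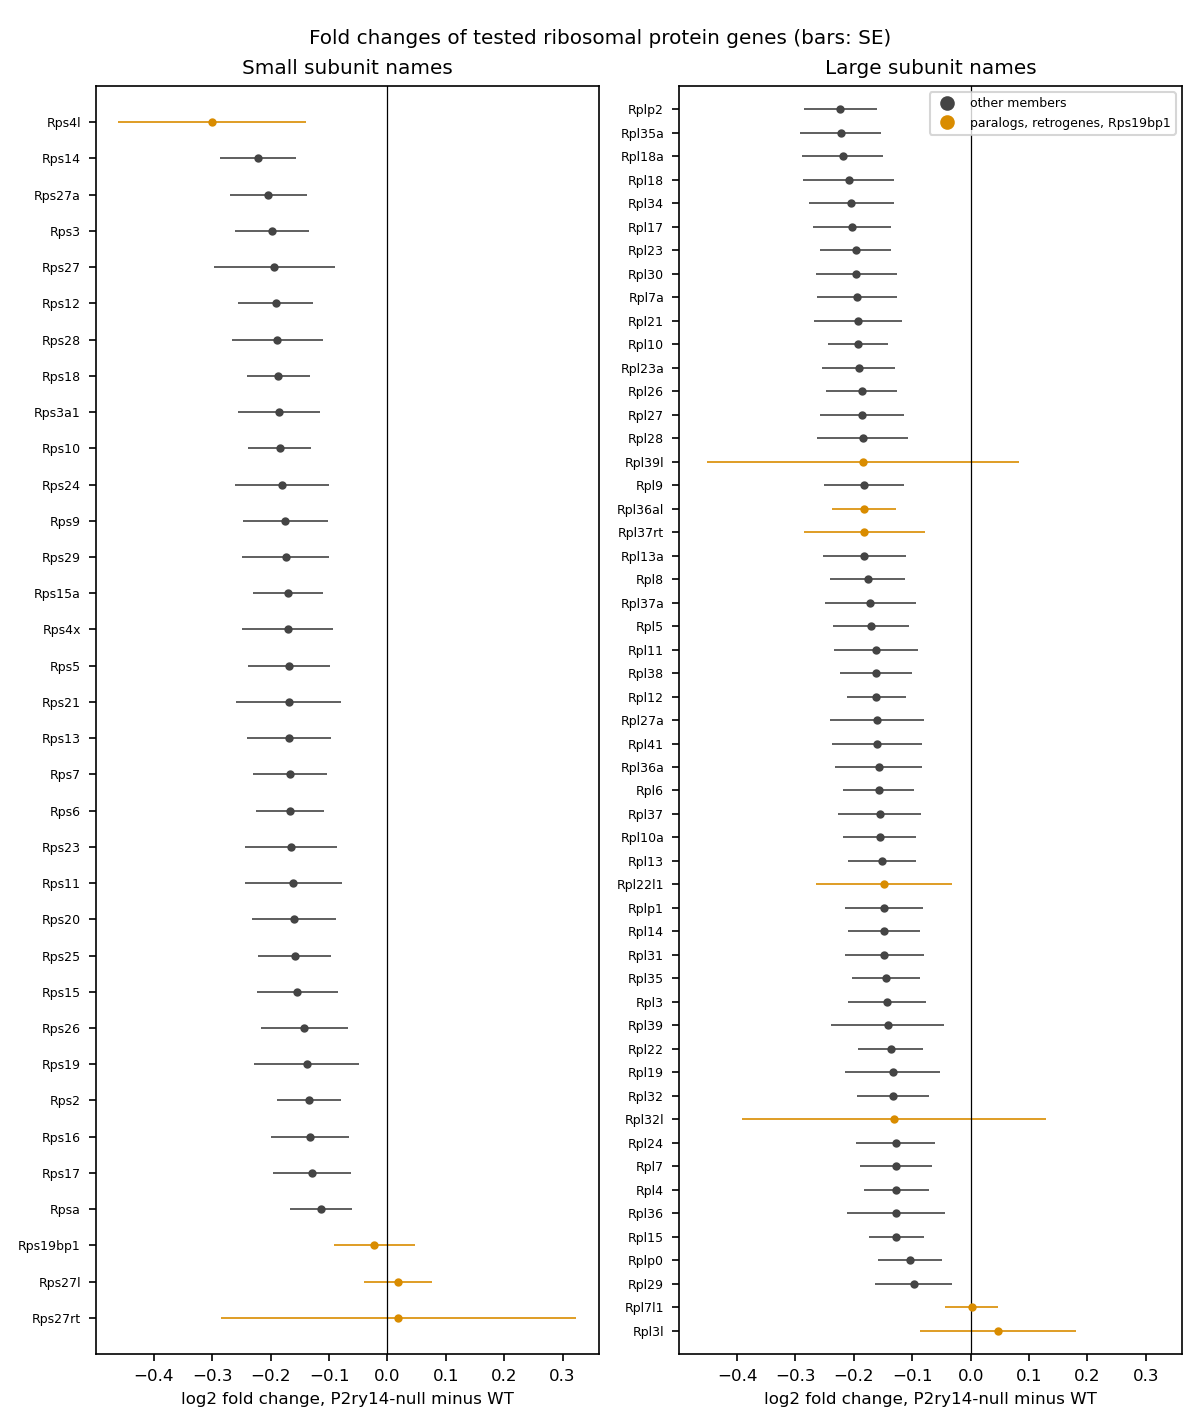
Log2 fold change (P2ry14-null minus WT) of each tested member shown, with its SE, small-subunit names on the left and large-subunit names on the right, and paralogs, retrogene rows and Rps19bp1 in orange. All black points lie between -0.22 and -0.10, and the 4 points right of 0 are orange.

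Summed over members, the level per library was 12827, 11932, 11832, 12244 and 11188 CPM in P2ry14-null libraries 1 to 5, against 15352, 13935, 12249, 12586 and 13294 CPM in WT libraries 1 to 5. The mean was 12005 ± 599 CPM in P2ry14-null libraries and 13483 ± 1231 CPM in WT libraries (SD, n = 5 each), a difference of -11.0% (log2 -0.17). The groups overlapped: P2ry14-null 1 stood above WT 3 and WT 4, and WT 1 stood well above the other 9 libraries. Unscaled, the members took 1.16% to 1.29% of all reads in P2ry14-null libraries and 1.20% to 1.51% in WT libraries.

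**Figure D3:**
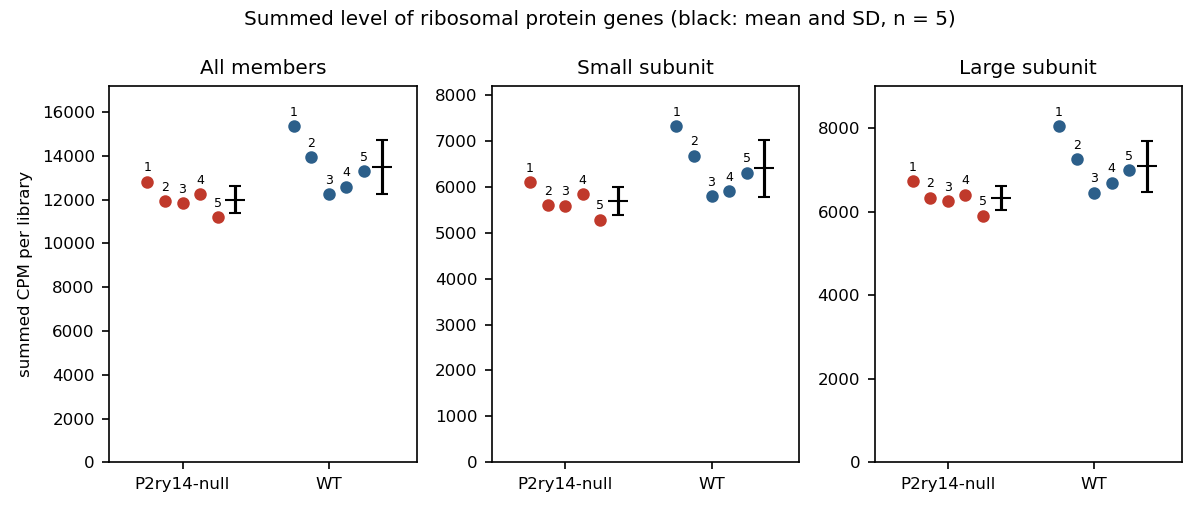
Summed CPM of all members, of the small-subunit members and of the large-subunit members in each library (numbered points), with the mean and SD (n = 5) beside each group. WT 1 is highest in each panel at 15352, 7312 and 8040 CPM, and P2ry14-null 5 is lowest at 11188, 5285 and 5903 CPM.

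The mean sums of both subunits were lower in P2ry14-null libraries, with overlapping groups. Small-subunit members summed to 5681 ± 306 CPM in P2ry14-null libraries and 6396 ± 620 CPM in WT libraries, and large-subunit members to 6324 ± 297 CPM in P2ry14-null libraries and 7087 ± 614 CPM in WT libraries (SD, n = 5 each). The median log2 fold change was -0.17 over 35 small-subunit members and -0.16 over 53 large-subunit members. The ratio of the small to the large sum stayed within 0.881 to 0.920 over the 10 libraries, and its ranges overlapped between genotypes (0.883 to 0.912 in P2ry14-null libraries, 0.881 to 0.920 in WT libraries).

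Among small-subunit genes, Rps18 had the smallest unadjusted p. Its levels were 64.7, 63.3, 62.1, 62.8 and 61.7 CPM in P2ry14-null libraries 1 to 5, against 80.2, 74.4, 67.2, 65.8 and 70.7 CPM in WT libraries 1 to 5, a log2 fold change of -0.19 ± 0.05. Rps18 (chr17:33951999-33955641, minus strand), which lies in the head of the subunit at the interface between the subunits, was lower in all 5 P2ry14-null libraries than in any WT library. Rps10, a protein near the mRNA entry side that is ubiquitinated on collided ribosomes, had 83.3, 81.5, 84.9, 86.6 and 84.3 CPM in P2ry14-null libraries 1 to 5, against 107, 99.2, 91.5, 90.4 and 89.5 CPM in WT libraries 1 to 5 (log2 -0.18 ± 0.05). Rps14, a platform protein whose human counterpart is lost from a single allele in a deletion form of myelodysplastic syndrome, had 194, 186, 188, 194 and 188 CPM in P2ry14-null libraries 1 to 5, against 254, 240, 202, 205 and 208 CPM in WT libraries 1 to 5 (log2 -0.22 ± 0.07). For Rps10 and Rps14 too, no P2ry14-null library reached the lowest WT library, although 3 of the 5 WT libraries of each lay close to the P2ry14-null range.

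Rps27a, made as a fusion to ubiquitin, had 305, 278, 286, 320 and 292 CPM in P2ry14-null libraries 1 to 5, against 388, 356, 330, 325 and 307 CPM in WT libraries 1 to 5 (log2 -0.20 ± 0.07). Here P2ry14-null 4 exceeded WT 5, so the groups overlapped. Rps27, the gene of the highest level per kb, overlapped more, with 405, 323, 315, 339 and 291 CPM in P2ry14-null libraries 1 to 5, against 447, 400, 316, 337 and 413 CPM in WT libraries 1 to 5 (log2 -0.19 ± 0.10). Rps6, the substrate of the S6 kinases downstream of mTORC1, averaged 140 ± 6.29 CPM in P2ry14-null libraries and 157 ± 12.9 CPM in WT libraries (SD, n = 5 each; log2 -0.17 ± 0.06). It was added to the named genes after its values were seen, for its place in that pathway.

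Among large-subunit genes, Rpl10 (chrX:74270816-74273135, plus strand), the X-linked protein whose loading completes the subunit in the cytoplasm, had the smallest unadjusted p of all members. It had 232, 224, 228, 229 and 222 CPM in P2ry14-null libraries 1 to 5, against 286, 254, 247, 269 and 241 CPM in WT libraries 1 to 5, a log2 fold change of -0.19 ± 0.05. The P2ry14-null libraries were tightly grouped and all lay under the lowest WT library. Rpl12, a protein at the base of the stalk, had 73.9, 76.4, 73.0, 73.7 and 69.9 CPM in P2ry14-null libraries 1 to 5, against 91.6, 81.3, 77.9, 79.0 and 80.4 CPM in WT libraries 1 to 5 (log2 -0.16 ± 0.05). It did not overlap either, and WT 1 stood apart from the other WT libraries. Rpl23, which with Rpl5 and Rpl11 is known to bind the p53 regulator Mdm2, had 170, 160, 155, 161 and 144 CPM in P2ry14-null libraries 1 to 5, against 199, 181, 168, 168 and 189 CPM in WT libraries 1 to 5 (log2 -0.20 ± 0.06). Its groups met only at P2ry14-null 1, which lay above WT 3 and WT 4.

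The acidic stalk, which recruits the translational GTPases, is built of Rplp0, Rplp1 and Rplp2. Rplp2 had 261, 252, 253, 249 and 232 CPM in P2ry14-null libraries 1 to 5, against 323, 308, 255, 276 and 294 CPM in WT libraries 1 to 5, a log2 fold change of -0.22 ± 0.06. Its groups met only where P2ry14-null 1 lay above WT 3. Rplp1 had a log2 fold change of -0.15 ± 0.07 and Rplp0, the protein that anchors the stalk, -0.10 ± 0.06, near the smallest value among the standard genes. Rpl35a, whose human counterpart is mutated in some cases of Diamond-Blackfan anaemia, had 137, 118, 123, 116 and 115 CPM in P2ry14-null libraries 1 to 5, against 157, 148, 126, 130 and 150 CPM in WT libraries 1 to 5 (log2 -0.22 ± 0.07). P2ry14-null 1 alone lay inside the WT range for it.

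In all, 7 of the 88 members had every P2ry14-null library below every WT library, among them Rpl10, Rpl12, Rpl36al, Rps10, Rps14 and Rps18, where 0.359% of all genes tested did, and 0 had the reverse. The counts behind these values were large. The 77 standard genes had 2243 to 77137 reads in each library, so counting error was small beside the spread between libraries.

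Library by library, the members varied as a block. WT 1 was the highest of the 10 libraries for 75 of the 77 standard genes, and P2ry14-null 5 was the lowest for 65. Of the 77, the number above all 5 P2ry14-null libraries was 77 in WT 1, 75 in WT 2, 10 in WT 3, 24 in WT 4 and 56 in WT 5. WT 3 and WT 4 thus lay mostly within the P2ry14-null range. The coefficient of variation had a median of 5.61% in P2ry14-null libraries and 9.60% in WT libraries, and it was the larger in WT libraries for 76 of the 77.

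**Figure D4:**
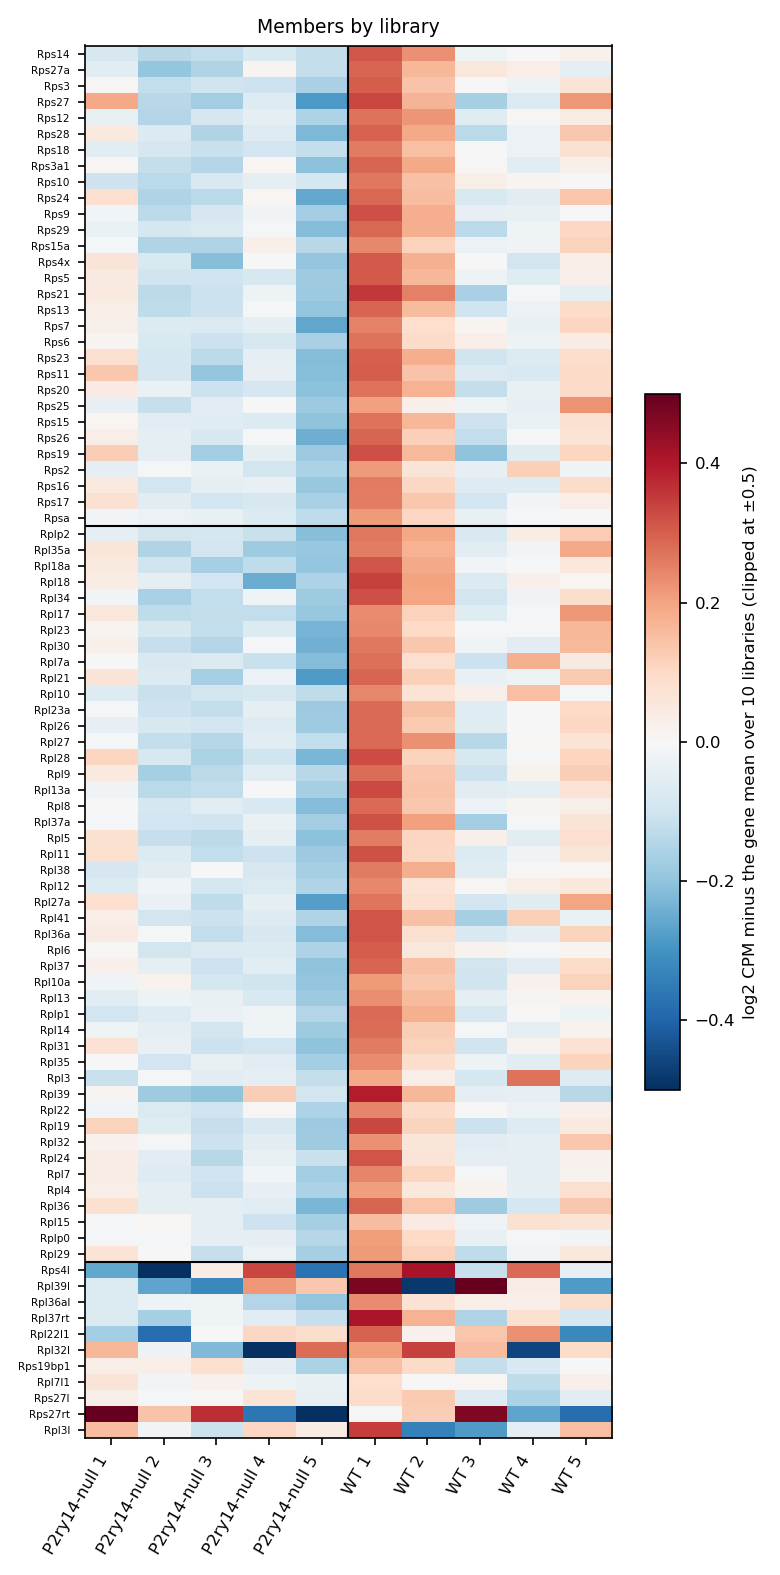
Log2 CPM of each tested member shown, minus its mean over the 10 libraries, P2ry14-null libraries left of the vertical line and WT libraries right of it, with small-subunit, large-subunit and other rows in that order from the top. WT 1 is red in nearly every standard row and P2ry14-null 5 is blue. In the bottom block of paralogs, retrogene rows and Rps19bp1 these bands are uneven. WT 1 is the highest library in some of its rows, such as Rpl36al (31.3 CPM) and Rps19bp1 (11.4 CPM), and not in others, such as Rps27l and Rps4l.

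With the group means removed, the correlation of a standard gene with the mean of the other members over the 10 libraries had a median r of 0.93, from 0.27 for Rpl3 to 0.98. It was over 0.8 for 68 of the 77, against 4.2% of the 15498 genes tested that are not members. Rpl3, a protein near the peptidyl transferase centre, followed the others least: WT 4 had 111 CPM, above the 105 CPM of WT 1. These correlations are over libraries that share their depth and scaling, and are given as a description. By the same measure the non-member genes most like the members were Btf3 (r = 0.99), a subunit of the nascent chain-associated complex at the ribosome exit, Ubl5 (0.99), a ubiquitin-like protein of splicing, Pfdn5 (0.99), a prefoldin subunit, Chmp2a (0.99), an ESCRT-III subunit, and Urod (0.98), an enzyme of haem synthesis. Their log2 fold changes were -0.14 for Btf3, -0.04 for Ubl5, -0.13 for Pfdn5, -0.06 for Chmp2a and -0.03 for Urod.

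The summed level also varied with depth inside the groups. Between the log2 summed CPM and the log2 total count, with group means removed, Pearson's r was -0.65 (permutation p = 0.064) and Spearman's rho -0.82 (permutation p = 0.0059) over 10 libraries, the only relation computed in this family, and chosen after the data were seen. The permutations moved values freely across the groups, which ignores that the group means had been removed, so these p-values are approximate. Without P2ry14-null 1 and WT 2, the libraries farthest from the median of the log2 total count after group means were removed, r was -0.71. The group means were not taken anew for the libraries left, so this r can hold part of a difference between the groups. The mean depth was 129 M reads in P2ry14-null libraries and 146 M reads in WT libraries, while the median was 149 M reads in P2ry14-null libraries and 133 M reads in WT libraries. With the log2 total count added to the model as a covariate, the median over members was -0.20, 87 of 88 were below 0, and 75 were lower at an unadjusted p under 0.05, where 2.59% of all genes tested were. Again 0 members passed the threshold (the smallest adjusted p was 0.563, edgeR), where 0.0192% of all genes tested did.

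The paralogs were set beside their standard partners. Rpl7l1, a paralog of Rpl7 linked to ribosome assembly, had 53.9, 51.1, 52.3, 50.6 and 50.3 CPM in P2ry14-null libraries 1 to 5, against 54.7, 51.5, 51.9, 47.3 and 52.5 CPM in WT libraries 1 to 5. The groups lay on top of each other, with a log2 fold change of 0.00 ± 0.05, while Rpl7 had -0.13 ± 0.06. Rps27l, a paralog of Rps27 induced by p53 in other cells, had 25.8, 25.1, 25.4, 26.5 and 24.6 CPM in P2ry14-null libraries 1 to 5, against 27.0, 27.7, 24.2, 22.6 and 24.3 CPM in WT libraries 1 to 5, with a log2 fold change of 0.02 ± 0.06. It likewise overlapped fully, and it made up 7.08% of the reads of the pair in P2ry14-null libraries and 6.17% in WT libraries. In 3 of the members above 0 (Rps27rt, Rps27l and Rpl7l1) the sign turned under at least 1 other setting of scaling, filter, test or depth.

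For 7 pairs the log2 ratio of the standard gene to its paralog was compared between genotypes with an exact two-sided permutation test, for which the smallest possible p is 0.0079. The ratio of Rpl7 to Rpl7l1 averaged 2.24 ± 0.06 in P2ry14-null libraries and 2.37 ± 0.08 in WT libraries on the log2 scale (SD, n = 5 each), a difference of -0.13 with an exact p of 0.0317 and 0.222 after adjustment over the 7 pairs. The ratio of Rps27 to Rps27l differed by -0.21 (exact p = 0.0714, adjusted 0.25). The other 5 pairs had adjusted exact p-values of 0.389 to 0.944, so no pair passed. A p that misses the threshold does not show that the ratios were equal.

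The remaining pairs differ in how much the paralog contributes. Rpl36al, an autosomal copy that encodes nearly the same protein as the X-linked Rpl36a, supplied 44.9% of the reads of the pair in P2ry14-null libraries and 45.3% in WT libraries. Rpl36al had 25.4, 26.1, 26.2, 24.0 and 23.2 CPM in P2ry14-null libraries 1 to 5, against 31.3, 27.9, 27.2, 27.0 and 28.3 CPM in WT libraries 1 to 5, a log2 fold change of -0.18 ± 0.05 with no overlap. Rpl36a had -0.16 ± 0.07. Rpl22l1, a paralog known to be repressed by Rpl22, supplied 15.1% of its pair in P2ry14-null libraries and 15.2% in WT libraries, with log2 fold changes of -0.15 ± 0.12 for Rpl22l1 and -0.14 ± 0.06 for Rpl22.

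Rpl3l, known from heart and skeletal muscle, was detected at 1.85 ± 0.129 CPM in P2ry14-null libraries and 1.79 ± 0.362 CPM in WT libraries, or 2.06% of its pair with Rpl3 in P2ry14-null libraries and 1.81% in WT libraries. Its log2 fold change of 0.05 ± 0.13 was the highest of all members. Leaving out WT 2 or WT 3 turned it to -0.02 in each case. Rps4l, a copy of the X-linked Rps4x, had 3.33 ± 0.839 CPM in P2ry14-null libraries and 4.11 ± 0.629 CPM in WT libraries, with the lowest value of all members at -0.30 ± 0.16 and overlapping groups. Rps4x had -0.17 ± 0.08. Rpl39l, known from the testis, supplied 0.274% of its pair in P2ry14-null libraries and 0.278% in WT libraries, with -0.18 ± 0.27 against -0.14 ± 0.10 for the X-linked Rpl39. Rps27rt had 0.02 ± 0.30 and Rpl32l -0.13 ± 0.26, both from too few reads to give a direction. Rps19bp1, which the symbol rule takes in by its name, had 10.2 ± 0.654 CPM in P2ry14-null libraries and 10.4 ± 0.818 CPM in WT libraries, with a log2 fold change of -0.02 ± 0.07 whose sign turned when total counts alone scaled the libraries.

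The members lie on chromosomes 1 to 18 and X, with 14 on chromosome 7, and the 4 on the X chromosome had a median of -0.16 against -0.17 for the 73 autosomal standard genes. The 4 members on chromosome 3, where P2ry14 lies, are 27.0 to 71.6 Mb away from it. The 30 standard genes with a small nucleolar RNA inside them had a median of -0.17, and so did the 47 without one. In 10 tested members another gene overlaps on the opposite strand, and since the strand setting of the counting is not given, reads of both cannot be told apart there. Their median was -0.15.

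Other parts of the translation machinery were read from lists of known members. Fau and Rack1 have products that sit on the ribosome but symbols outside the rule. Fau had a log2 fold change of -0.18 ± 0.07 and Rack1 one of -0.15 ± 0.05. Of 17 elongation factors and other TOP mRNAs, 17 were below 0, with a median of -0.11. Tpt1, a classical TOP mRNA, averaged 743 ± 42.7 CPM in P2ry14-null libraries and 850 ± 34.1 CPM in WT libraries (SD, n = 5 each; log2 -0.19 ± 0.05), and Eef1b2, the exchange factor of eEF1A, 116 ± 4.19 CPM in P2ry14-null libraries and 131 ± 11.2 CPM in WT libraries (log2 -0.18 ± 0.06). Neither overlapped between genotypes. Neither these genes nor the lists that follow held a gene past the threshold (adjusted p of 0.532 or more, edgeR).

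Initiation factors were below 0 in 22 of 23 with a median of -0.06. Eif1, which guards start codon choice, had -0.22 ± 0.07 and Eif4a1, the helicase of the cap complex, -0.15 ± 0.08. Ribosome biogenesis and RNA polymerase I genes were below 0 in 26 of 30 rows (29 genes, Polr1a with 2 rows) with a median of -0.05. Polr1c, shared by RNA polymerases I and III, had -0.17 ± 0.07, and Nop58, a core protein of box C/D small nucleolar ribonucleoproteins, -0.10 ± 0.05. The ribosomal proteins of the mitochondrion, made for a separate ribosome, were below 0 in 21 of 27 with a median of -0.02, where Mrpl1 had 0.12 ± 0.07 and Mrpl14 -0.09 ± 0.07.

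The regulators of mTORC1 and of TOP mRNAs were below 0 in 7 of 19, with a median of 0.01. Ddit4, an inhibitor of mTORC1 induced by stress and glucocorticoids, had 97.2, 87.9, 103, 85.8 and 82.4 CPM in P2ry14-null libraries 1 to 5, against 108, 97.1, 114, 120 and 111 CPM in WT libraries 1 to 5 (log2 -0.27 ± 0.07). Only WT 2 lay within the P2ry14-null range. Mlst8, a subunit of both mTOR complexes, had 24.0, 23.3, 21.9, 21.3 and 24.9 CPM in P2ry14-null libraries 1 to 5, against 18.8, 20.8, 19.5, 20.7 and 21.1 CPM in WT libraries 1 to 5 (log2 0.19 ± 0.06), with every P2ry14-null library above every WT library. The 7 tested hosts of small nucleolar RNAs that make no protein, themselves TOP transcripts in part, had 7 of 7 below 0 and a median of -0.33. Snhg12 had -0.42 ± 0.18 and Snhg6 -0.17 ± 0.08. The list summed to 44.9 to 54.1 CPM in P2ry14-null libraries, against 100.3 CPM in WT 4 and 46.8 to 63.0 CPM in the other WT libraries. Without WT 4 its median was -0.15.

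**Figure D5:**
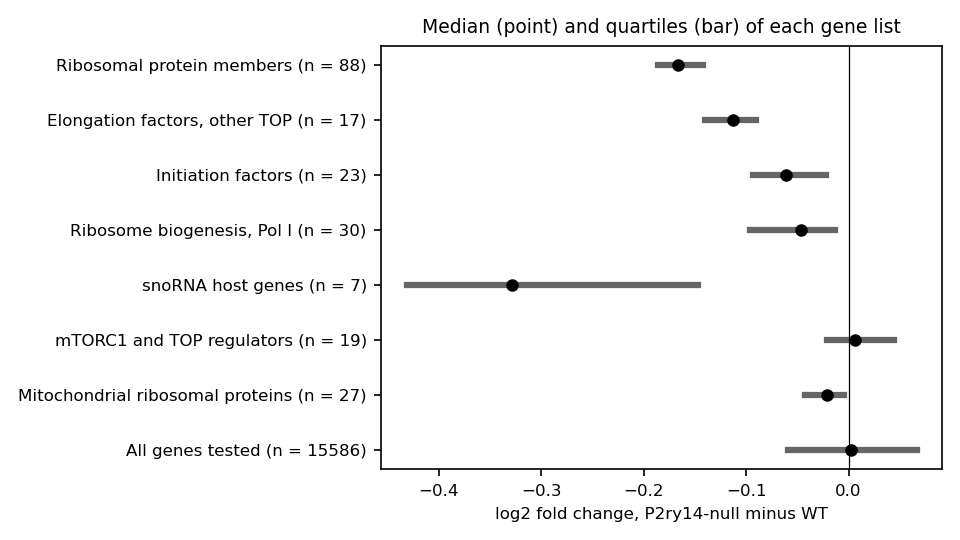
Median (point) and quartiles (bar) of the log2 fold change, P2ry14-null minus WT, in each list of the translation machinery and over all 15586 genes tested. The ribosomal protein genes lie at -0.17, the elongation and other TOP list at -0.11, the mTORC1 list at 0.01, the mitochondrial list at -0.02 and all genes tested at 0.0025.

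Markers of other cells differed between libraries too. All 8 tested mast cell and basophil genes were below 0 (median -0.53), and the summed level of the 9 listed was 69.3 to 90.6 CPM in P2ry14-null libraries, without overlap with 99.7 to 115 CPM in WT libraries. Hdc, the histamine-forming enzyme, had a log2 fold change of -0.65 ± 0.14. Nearly all of the sum came from Gata2, Hdc and Kit. They averaged 40.1, 29.3 and 10.2 CPM in P2ry14-null libraries and 46.8, 46.0 and 11.5 CPM in WT libraries. The other tested genes of the list averaged at most 0.585 CPM in either genotype, although no listed gene was at 0 in every library. The sum therefore rests on few genes and is no measure of mast cell or basophil content. Of the 9 tested neutrophil genes, 8 were above 0, with a median of 0.16. The 10 listed summed to 3728 to 5410 CPM in P2ry14-null libraries and 3714 to 4654 CPM in WT libraries. Most of that sum was a single gene, Retnlg, at 4103 ± 655 CPM in P2ry14-null libraries and 3782 ± 360 CPM in WT libraries (mean and SD). The sum is therefore no measure of neutrophil content. The 8 class II and dendritic cell genes summed to 449 CPM in P2ry14-null 2 and to 96.4 to 143 CPM in the other P2ry14-null libraries, against 129 to 167 CPM in WT libraries. Alveolar macrophage, lung epithelial and lymphocyte genes reached their highest sums (2178, 82.1 and 26.2 CPM) in P2ry14-null 2, against at most 1011, 31.5 and 19.6 CPM in WT libraries. Car4 and Chil3 made up most of the macrophage sum. Endothelial and fibroblast genes overlapped (206 to 241 CPM in P2ry14-null libraries, 212 to 236 CPM in WT libraries). Most of their sum was Pecam1, which averaged 213 CPM in P2ry14-null libraries and 221 CPM in WT libraries. The part of these markers in the ribosomal protein values was not tested. Without P2ry14-null 2, the median of the class II list was -0.38 in place of 0.39, that of the alveolar macrophage list -0.20 in place of 0.32, that of the lymphocyte list -0.17 in place of 0.19 and that of the epithelial list 0.01 in place of 0.91. Without the same library the median over the ribosomal protein genes was -0.16.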

How the data were processed

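A single deposited table holds raw counts, as whole numbers, for the 10 libraries. STAR 2.5, featureCounts 1.5.0-p1 of Subread, DESeq2 and the build mm10 are named in the submitters' processing notes. The annotation release, strand setting and multi-mapping treatment were not given in the sources used here. Libraries were made with an Illumina TruSeq RNA kit, per the labels' protocols.

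The deposited counts were tested with edgeR 4.0.16 (R 4.3.3), TMM factors and the default filter, over 15586 genes, with Benjamini-Hochberg adjustment at a threshold of 0.05. The common coefficient of variation was 12.3%. CPM values use TMM-scaled library sizes, log2 fold changes are P2ry14-null minus WT, and the error given after a fold change is the SE. A count of 3 reads equals 0.0447 CPM in the shallowest library and 0.0162 CPM in the deepest, for counting error only. Alternatives used DESeq2 1.42.0, limma 3.58.1, other scaling, other filters and left-out libraries. The script was tested on simulated data. Levels per kilobase used GENCODE vM21 and start-site sequences RefSeq GRCm38.p6. Of the 20 library pairs checked, which are not all pairs of the 10 libraries, none agreed within sampling noise. 31 rows repeat a symbol and were kept apart.

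Members and lists were chosen with earlier results of these data known. Named members were the 5 with the smallest p in each subunit, the 3 lowest and 3 highest fold changes, those above 0, the 3 highest and 3 lowest per kilobase, the paralog pairs, untested members and matched symbols that are not ribosomal proteins. From each other list the 2 genes with the smallest p could be named. Alox15, Itgam, Retnlg, Car4, Chil3, Pecam1, Gata2 and Kit were named for their share of a list sum, after their values were seen. Rps6, Rplp0 and Rplp1 were named for their roles after their values were seen. Some results for single genes are not reported here, and the plots by gene leave such genes out.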

Additional observations from a re-analysis of the deposited data

Results flagged for a closer look

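In groups of 5 libraries, a highest or lowest value was singled out when its gap to the nearest other value, divided by the range of the group, was above 0.71 (Dixon's 95% limit). Of the 130 groups checked, over the named genes, the summed ribosomal protein levels and the summed gene lists, 6 met it, and chance flags about 1 in 20 groups. In WT 1, Rpl36al had 31.3 CPM, where the other WT libraries had 27.0 to 28.3 CPM (gap over range 0.711), and Rpl12 had 91.6 CPM, where the others had 77.9 to 81.3 CPM (0.749). Snhg6, a small nucleolar RNA host, had 4.19 CPM in WT 1, where the others had 3.50 to 3.63 CPM (0.805). In P2ry14-null 2, the class II and dendritic cell genes summed to 449 CPM, where the other P2ry14-null libraries had 96.4 to 143 CPM (0.868). The alveolar macrophage genes summed to 2178 CPM there and to 739 to 867 CPM in the others (0.911). The lung epithelial genes summed to 82.1 CPM there and to 10.4 to 24.5 CPM in the others (0.803).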

How the results depend on the processing

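The number of ribosomal protein genes called stayed at 0 under each alternative run. The member median ran from -0.20 to -0.11 (lowest without WT 3, highest without WT 1) when a library was left out and from -0.20 to -0.14 under the others, the number below 0 from 83 to 87 of 88 and from 80 (of the 82 tested at a mean of at least 5 CPM) to 87 (of 88), and the log2 difference in summed level from -0.20 to -0.12 and from -0.18 to -0.14. The count of members lower at an unadjusted p under 0.05, 58 as reported, ran from 26 to 79 with a library left out. It was 27 with total counts alone, which moved the median of all genes to 0.03. The share of all genes tested moved too. It was 1.81% where the count was 26 (without P2ry14-null 5), 4.27% where it was 79 (without WT 3) and 1.82% with total counts alone. Over all genes, 6 calls became 3 with a mean of at least 5 CPM, 18 with DESeq2, 3 with the log2 total count as covariate (chosen after seeing the data) and 3 to 5 with a library left out. With the replicate number as a block there were 6 calls, 0 of them members, and the member median was -0.16, with 84 below 0. Deviations of same-numbered libraries correlated at -0.09 to 0.09, so they shared little. Whether the numbers pair the samples is not stated in the labels, and such correlations cannot decide it.

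The signs that turned belong to members near 0. Rps27rt had -0.032 with limma-voom and -0.047 with the depth covariate, Rps27l -0.00093 with that covariate, Rpl7l1 -0.0085 without a filter and -0.014 with that covariate, and Rps19bp1 0.0065 with total counts alone. With a library left out, the log2 fold change ran from -0.021 to 0.15 for Rpl3l, from -0.12 to 0.19 for Rps27rt, from -0.012 to 0.056 for Rps27l, from -0.022 to 0.024 for Rpl7l1 and from -0.054 to 0.014 for Rps19bp1. The cause was not tested. Depth limits Rpl39l, Rpl32l and Rps27rt, at 6 to 25 reads a library, and Rpl10l, at 1 read in all.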
